A study of Homo sapiens with 4 samples.

Results

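Lysine demethylases remove methyl groups from histone tails, and the proteins with a Jumonji C (JmjC) domain form most of the family. The 30 genes described here are human LSD-type demethylases, JmjC-type demethylases and other JmjC proteins. The list is not complete: JARID2, KDM4E, RSBN1 and RSBN1L were grouped as JmjC genes outside it. Family counts and sums below cover the listed genes only. They were picked by gene symbol through the Ensembl identifiers of the deposited tables. The rule used no measured value, but it was set with earlier results of these data known. All 30 were found among the 58735 genes of the tables, and 27 of them averaged 1 FPKM or more across the libraries, as did 12296 genes in all. FPKM is fragments per kilobase of exon, scaled to make libraries comparable. The scaling found in the deposited values follows the median ratio of reads per gene between libraries, not the total of reads. HR, KDM4D and JMJD7 lay under that mean.

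RNA was sequenced from MOLM13 after 12 h of treatment. MOLM13 is an established line of human acute myeloid leukaemia, with the fusion MLL::AF9. The 4 groups were DMSO (the vehicle), SD70 alone, MI-503 alone, and SD70 together with MI-503, called the combination here. Each group was 1 library from a single cell line, and the sources used here give no dose. SD70 was reported to inhibit the JmjC demethylase KDM4C, and MI-503 keeps the scaffold protein menin from binding MLL. The series asks what underlies a synergy of these agents, and the question addressed here is how the demethylase genes themselves were expressed under them.

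LSD-type enzymes are flavin-dependent amine oxidases, and their chemistry limits them to mono- and dimethylated lysine. JmjC enzymes are oxygenases that use iron, molecular oxygen and 2-oxoglutarate, a metabolite of the Krebs cycle, and several of them can also act on trimethylated lysine. The families differ in the mark they remove: LSD and KDM5 act on H3K4, KDM2 on H3K36, KDM3 and KDM4 mainly on H3K9, and KDM6 on H3K27. In acute myeloid leukaemia KDM1A and JMJD1C are known as genes that leukaemic cells depend on.

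Promoter sequences are shown for 5 members on which the results turn: KDM1A, KDM3A, JMJD1C and KDM6B, whose RNA passed a test for SD70, and KDM4C, the reported target of that compound. RIOX1 also passed and is named only. Each is the 250 bases before a start annotated by RefSeq on GRCh38.p14, printed 5′ to 3′ on the strand of the gene. Capitals mark 3 motifs on either strand. They are the E-box, CACGTG, which MYC and its relatives read, and the core motifs of hypoxia-inducible factors, here called the A core (ACGTG) and, with another first base, the G core (GCGTG). Every E-box also holds an A core, and a motif on the other strand is printed as its reverse complement.
KDM1A, chr1:23019218-23019467, + strand: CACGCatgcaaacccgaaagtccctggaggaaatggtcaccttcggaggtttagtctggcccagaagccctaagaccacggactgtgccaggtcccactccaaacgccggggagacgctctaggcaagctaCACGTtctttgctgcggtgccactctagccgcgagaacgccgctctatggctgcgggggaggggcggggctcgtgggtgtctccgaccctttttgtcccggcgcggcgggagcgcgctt
KDM3A, chr2:86441121-86441370, + strand: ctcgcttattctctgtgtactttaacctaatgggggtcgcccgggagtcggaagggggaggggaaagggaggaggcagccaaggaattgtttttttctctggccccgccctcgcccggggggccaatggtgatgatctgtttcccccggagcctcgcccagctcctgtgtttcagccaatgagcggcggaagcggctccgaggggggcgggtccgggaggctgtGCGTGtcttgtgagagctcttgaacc
JMJD1C, chr10:63521891-63522140, - strand: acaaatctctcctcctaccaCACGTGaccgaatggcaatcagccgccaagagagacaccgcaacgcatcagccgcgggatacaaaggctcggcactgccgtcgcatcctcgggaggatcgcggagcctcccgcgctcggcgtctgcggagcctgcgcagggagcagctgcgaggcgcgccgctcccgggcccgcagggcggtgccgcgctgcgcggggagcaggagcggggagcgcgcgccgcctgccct
KDM6B, chr17:7833967-7834216, + strand: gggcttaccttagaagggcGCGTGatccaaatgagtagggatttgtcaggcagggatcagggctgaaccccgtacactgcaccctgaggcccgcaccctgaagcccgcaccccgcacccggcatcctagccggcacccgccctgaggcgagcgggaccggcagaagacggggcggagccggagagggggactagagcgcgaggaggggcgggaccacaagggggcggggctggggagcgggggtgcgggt
KDM6B, chr17:7839667-7839916, + strand: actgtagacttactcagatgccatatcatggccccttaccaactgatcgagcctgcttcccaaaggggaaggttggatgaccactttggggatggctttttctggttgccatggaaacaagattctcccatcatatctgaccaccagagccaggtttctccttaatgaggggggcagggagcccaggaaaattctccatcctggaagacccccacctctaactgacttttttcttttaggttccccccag
KDM4C, chr9:6757723-6757972, + strand: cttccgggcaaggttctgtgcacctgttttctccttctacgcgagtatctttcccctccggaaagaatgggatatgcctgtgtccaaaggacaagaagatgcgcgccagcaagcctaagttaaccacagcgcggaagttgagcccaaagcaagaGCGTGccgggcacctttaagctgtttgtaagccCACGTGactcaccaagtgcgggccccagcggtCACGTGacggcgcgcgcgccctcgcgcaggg
The KDM4C window holds 2 E-boxes, with their first bases 63 and 31 before the start, and a G core at 96. The JMJD1C window holds 1 E-box at 230, whereas its other 2 annotated starts had none of the motifs. In the KDM3A window the G core lies 26 before the start, and a second annotated start, whose window is not printed because it overlaps this one, has the same G core at 116. KDM6B has 1 window with a G core at 231 and 1 with none of the motifs, and in the KDM1A window an A core lies at 119 and a G core at 250. The member windows counted here come from 26 member genes, 36 starts in all. JMJD6, RIOX1 and RIOX2 have no window in this set. HR was left out when the member windows were picked, whatever the set holds for it. The member shares therefore cover none of these genes. That they were not counted does not show that they lack a RefSeq start. An E-box occurred in 5 of these 36 windows (13.9%), against 6.34% of all 35116 windows of this length, an A core in 7 (19.4%, against 18.5%) and a G core in 20 (55.6%, against 32.2%). The member windows were also richer in G and C (median 64.8%, against 58.0%), and the part of base composition in the motif shares was not tested. The genes with an E-box were HSPBAP1, JMJD1C, KDM4B, KDM4C and KDM6A. A match to these letters is a description and not a binding site.

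The libraries held 14695753 to 15937390 reads, recovered from the deposited values. Under the deposited scaling, 1 read per kilobase of exon was worth 0.0641 to 0.0662 FPKM. Mitochondrial ribosomal RNA took 0.853% of reads in DMSO, 0.928% in MI-503, 1.5% in SD70 and 1.43% in the combination. This share moved with SD70 as the genes below do, and its part in the results was not tested. Of 9 myeloid markers, all but CD68 had a mean of at least 1 FPKM. The summed level of all 9 was 487 FPKM in DMSO, 681 in SD70, 688 in MI-503 and 761 in the combination. Much of that sum was LYZ, at 151, 236.7, 281 and 329.3 FPKM in the same order, and CEBPA, at 114, 187.5, 160.6 and 173.4 FPKM. Single myeloid markers went both ways with SD70: in the limma test CSF1R rose, at 3.39 FPKM in DMSO, 17.2 in SD70, 8.77 in MI-503 and 16.1 in the combination (adjusted p = 0.0321), PTPRC rose (adjusted p = 0.0364) and MPO fell (adjusted p = 0.0301). FLT3 was at 65.3 FPKM in DMSO and 41.6 in SD70 and did not pass. Among the markers of other cells, 1 of 7 lymphocyte genes (CD4), 0 of 6 erythroid and megakaryocytic genes and 1 of 7 epithelial, stromal and endothelial genes (PECAM1) reached that mean, and CD3E, MS4A1, HBB and EPCAM were at 0. PECAM1, an adhesion molecule of endothelial and also of myeloid cells, rose with SD70, at 11.8 FPKM in DMSO, 27.4 in SD70, 16.4 in MI-503 and 26.1 in the combination (limma adjusted p = 0.0266). The part of these marker differences in the results was not tested. In bulk RNA, fewer cells of a type and less RNA per cell cannot be told apart.

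Where 4 values are given, they are FPKM of DMSO, then SD70, then MI-503, then the combination. Ratios are of FPKM between 2 libraries, with an exact 95% counting interval (Clopper-Pearson, conditional on the reads), which covers counting error only and does not measure the spread between cultures. With 1 library per group there is no test of a pair of libraries. The words rose and fell are kept for genes past a limma test that sets the 2 libraries with an agent against the 2 without it (adjusted p, Benjamini-Hochberg over 12296 genes, threshold 0.05). That fit has 1 residual degree of freedom, and its calls were lost in 2 of the settings described in the closing section.

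**Figure D1:**
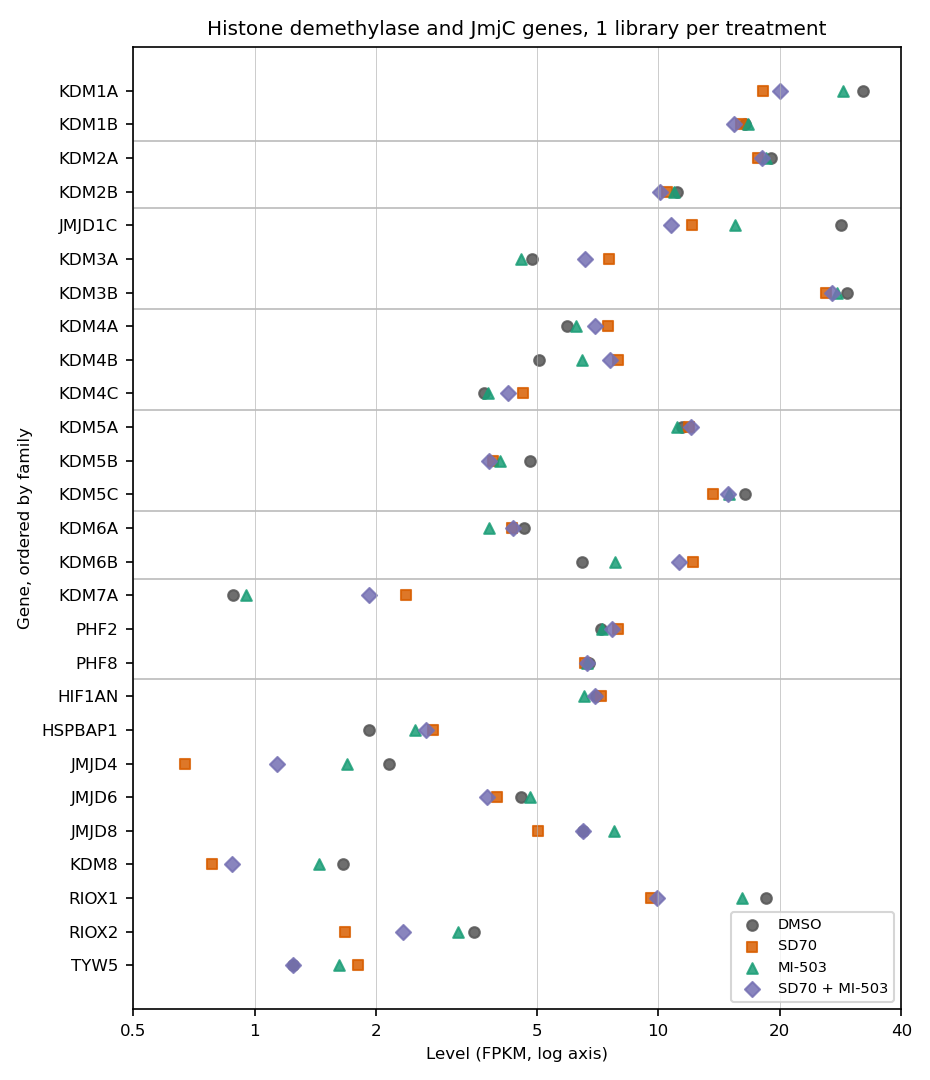
FPKM (log axis) of 27 of the 30 genes in each of the 4 libraries, 1 point per library, with genes ordered by family. HR, KDM4D and JMJD7 are not plotted. KDM1A is at 32.2 in DMSO and 18.1 in SD70, JMJD1C at 28.3 and 12.1, and KDM6B at 6.46 and 12.2, while genes such as KDM1B and KDM5A lie close together in all 4 libraries.

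In DMSO the member genes spanned a wide range of levels, and KDM1A, KDM3B and JMJD1C stood at the top. KDM3B, a KDM3 demethylase of H3K9, was at 29.4, 25.99, 27.7 and 26.9 FPKM. KDM1A ranked first among the 30 genes in DMSO and in MI-503, and KDM3B ranked first in both libraries with SD70. JMJD1C ranked 3 in DMSO, 7 in SD70, 6 in MI-503 and 8 in the combination. KDM6B moved from rank 14 in DMSO to rank 6 in SD70.

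KDM1A, also called LSD1, removes mono- and dimethylation from H3K4 in complexes with RCOR1 and histone deacetylases. Its gene lies at chr1:23019443-23083689 (GRCh38, GENCODE 29). KDM1A was at 32.2, 18.1, 28.6 and 20.04 FPKM, with both SD70 libraries below both others, and it fell with SD70, by limma, with a log2 change of -0.64 ± 0.14 (SE) and an adjusted p = 0.0330. The level in SD70 was 0.563 of that in DMSO (0.529 to 0.600), and the level in the combination was 0.700 of that in MI-503 (0.657 to 0.745). Its paralogue KDM1B, which acts in the bodies of transcribed genes, was at 16.4, 16.1, 16.6 and 15.4 FPKM. The libraries differed little for KDM1B, and its ratio of SD70 to DMSO was 0.977 (0.907 to 1.05). The level of KDM1A was 1.957 times that of KDM1B in DMSO and 1.13 times in SD70.

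The KDM2 genes stayed near their DMSO level in every library. KDM2A was at 19.1, 17.6, 18.5 and 18.1 FPKM. KDM2B, which tethers a Polycomb repressive complex to unmethylated CpG islands, was at 11.1, 10.5, 11.0 and 10.1 FPKM. The summed level of the pair in SD70 was 0.934 of DMSO as deposited, and 1.14 when libraries were scaled to the same upper quartile, so its direction depended on the scaling.

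KDM3 genes went in opposite directions under SD70. KDM3A, an H3K9 demethylase known as a gene induced by hypoxia, lies at chr2:86440647-86492716 and was at 4.86, 7.54, 4.56 and 6.60 FPKM. Both SD70 libraries were above both others, and KDM3A rose with SD70, by limma, with a log2 change of 0.50 ± 0.12 (SE) and an adjusted p = 0.0424. The ratio was 1.55 against DMSO (1.43 to 1.68) and 1.45 between the combination and MI-503 (1.33 to 1.57).

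JMJD1C, a KDM3 relative, lies on the minus strand at chr10:63167221-63521850 and was at 28.3, 12.1, 15.5 and 10.8 FPKM. These rested on 4735, 2071, 2681 and 1840 reads. DMSO was the highest library and each treated library was far below it, the combination lowest. JMJD1C fell with SD70, by limma, with a log2 change of -0.83 ± 0.19 (SE). Its adjusted p = 0.0382 as deposited and 0.0528 at an equal FPKM total per library, over a range of 1.18e-05 to 0.291 in the alternative settings. The ratio to DMSO was 0.427 in SD70 (0.405 to 0.450), 0.548 in MI-503 (0.523 to 0.575) and 0.380 in the combination (0.360 to 0.401). An antisense gene, JMJD1C-AS1, shares 3.50% of the exonic bases of JMJD1C and was at 3.72, 0.145, 2.21 and 0.630 FPKM, lowest in the SD70 library. The sources used here do not say whether counting used the strand, so reads in the shared bases cannot be told apart.

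The share of JMJD1C in the summed FPKM of the KDM3 family went from 45.3% in DMSO to 26.5% in SD70, 32.5% in MI-503 and 24.3% in the combination. That of KDM3B went from 46.9% to 57.0%, 57.9% and 60.8%. HR, known as the hairless corepressor of skin, had 0 reads in DMSO and SD70 and 2 reads each in MI-503 and the combination.

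KDM4 enzymes act on H3K9 and H3K36, and KDM4C is the reported target of SD70. The 3 measured KDM4 genes were higher in both SD70 libraries than in both others, as were 32.1% of all genes, but 0 of the 3 passed the limma test. KDM4A was at 5.95, 7.52, 6.26 and 6.98 FPKM, and its SD70 to DMSO ratio was 1.26 (1.12 to 1.43, limma adjusted p = 0.244). KDM4B was at 5.05, 7.97, 6.49 and 7.57 FPKM, with a ratio of 1.58 (1.46 to 1.70, limma adjusted p = 0.111), and DMSO was its lowest library. KDM4C, whose promoter with 2 E-boxes is printed above, was at 3.70, 4.61, 3.79 and 4.25 FPKM, with a ratio of 1.25 (1.12 to 1.39, limma adjusted p = 0.306). All 3 counting intervals lay above 1, with no measure of the spread between cultures to set beside them. KDM4D was near the floor, with 2, 14, 3 and 1 reads. A floor of 3 reads per library leaves the SD70 library as the only one above it for KDM4D. The summed KDM4 level in SD70 was 1.38 times DMSO as deposited, 1.49 times with the same FPKM total and 1.69 times with the same upper quartile.

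The KDM5 genes, whose products remove di- and trimethylation from H3K4, showed small differences. KDM5A was at 11.5, 11.9, 11.1 and 12.0 FPKM. KDM5B was at 4.82, 3.90, 4.06 and 3.82 FPKM, so every treated library was below DMSO, and its ratio of SD70 to DMSO was 0.810 (0.757 to 0.867). KDM5C was at 16.4, 13.7, 14.9 and 14.9 FPKM. None of the 3 passed the limma test, where adjusted p lay at 0.652, 0.408 and 0.513 in this order. For KDM5C the ratio of SD70 to DMSO turned above 1 with the same upper quartile (log2 -0.24 as deposited, 0.03 scaled).

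Of the H3K27 demethylases, KDM6B rose and KDM6A did not pass the test. KDM6B, known as JMJD3 and as a gene that inflammatory signals induce in macrophages, lies at chr17:7839904-7854796 and was at 6.46, 12.2, 7.80 and 11.3 FPKM. DMSO was the lowest library and both SD70 libraries were above both others. KDM6B rose with SD70, by limma, with a log2 change of 0.65 ± 0.14 (SE) and an adjusted p = 0.0341. It had a ratio of 1.88 against DMSO (1.72 to 2.07) and of 1.45 between the combination and MI-503 (1.33 to 1.58). KDM6A, also called UTX, was at 4.64, 4.34, 3.81 and 4.37 FPKM, within a narrow range (limma adjusted p = 0.850). The level of KDM6B was 1.39 times that of KDM6A in DMSO, 2.81 times in SD70, 2.05 times in MI-503 and 2.58 times in the combination.

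KDM7A, a relative of PHF8 that acts on dimethylated H3K9 and H3K27, had the highest ratio of SD70 to DMSO among the 27 genes. KDM7A was at 0.884, 2.38, 0.951 and 1.92 FPKM, from 126, 347, 140 and 280 reads. Both SD70 libraries were above both others, with a ratio of 2.69 against DMSO (2.19 to 3.32) and of 2.02 between the combination and MI-503 (1.64 to 2.49). KDM7A did not pass the limma test (adjusted p = 0.0640). PHF8, which removes monomethylation from H4K20 and methylation from H3K9, was at 6.73, 6.60, 6.64 and 6.67 FPKM. PHF2 was at 7.21, 7.94, 7.26 and 7.67 FPKM, so these close relatives of KDM7A differed little between libraries.

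The remaining JmjC proteins of the list are not established as histone demethylases, and several of them hydroxylate proteins or RNA. RIOX1 and RIOX2 hydroxylate histidines in ribosomal proteins. RIOX1, on chr14:73490964-73493392, was at 18.4, 9.58, 16.1 and 9.93 FPKM, with both SD70 libraries well below both others. RIOX1 fell with SD70, by limma, with a log2 change of -0.76 ± 0.13 (SE) and an adjusted p = 0.0252. It had ratios of 0.519 against DMSO (0.456 to 0.591) and 0.617 between the combination and MI-503 (0.541 to 0.703). RIOX2 was at 3.50, 1.67, 3.19 and 2.33 FPKM, in the same order of libraries with and without SD70, with a ratio of 0.478 (0.397 to 0.573, limma adjusted p = 0.0795). Exons of RIOX2 overlap those of CRYBG3 on the opposite strand over 27.6% of their bases, and CRYBG3 was at 2.66, 3.02, 2.17 and 2.64 FPKM.

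JMJD4, which hydroxylates a lysine of the translation termination factor eRF1, was at 2.15, 0.674, 1.69 and 1.14 FPKM, from 140, 45, 114 and 76 reads. SD70 was its lowest library, at 0.314 of DMSO (0.219 to 0.442, limma adjusted p = 0.121). JMJD4 shares 53.8% of its exonic bases with SNAP47 on the opposite strand, which was at 3.29, 3.68, 3.75 and 3.78 FPKM. KDM8, an arginine hydroxylase once described as a demethylase, was at 1.65, 0.784, 1.44 and 0.880 FPKM, with a ratio of 0.474 (0.330 to 0.673, limma adjusted p = 0.181). Both genes were lower in both SD70 libraries than in both others.

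JMJD6, a lysine hydroxylase that acts on splicing factors, was at 4.57, 3.99, 4.82 and 3.76 FPKM, again lower in both SD70 libraries than in both others. HIF1AN, the asparagine hydroxylase that restrains hypoxia-inducible factors, was at 6.99, 7.21, 6.54 and 6.97 FPKM and differed little. JMJD8, a protein of the endoplasmic reticulum, was at 6.50, 5.04, 7.76 and 6.52 FPKM, lowest in SD70 and highest in MI-503. JMJD8 shares 37.4% of its exonic bases with STUB1 on the opposite strand. HSPBAP1, which binds a small heat shock protein, was at 1.92, 2.76, 2.50 and 2.67 FPKM, so DMSO was its lowest library. TYW5, a tRNA hydroxylase, was at 1.25, 1.80, 1.62 and 1.24 FPKM, higher with either agent alone than in DMSO or the combination. JMJD7, a lysyl hydroxylase under the mean of 1 FPKM, was at 0.537, 0.459, 0.358 and 0.394 FPKM, and 80.1% of its exonic bases also belong to the read-through gene JMJD7-PLA2G4B on the same strand.

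**Figure D2:**
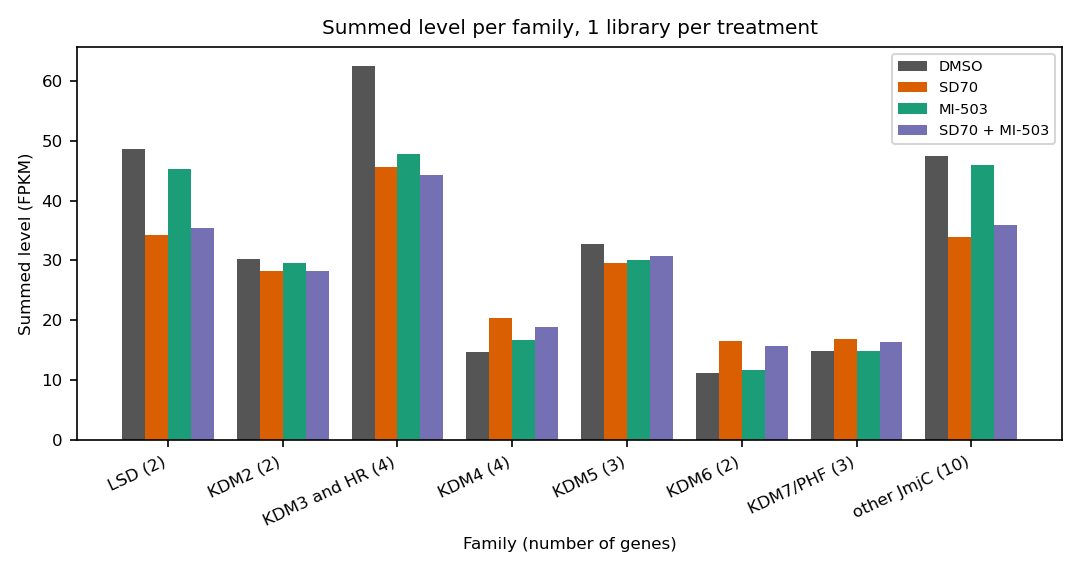
Summed FPKM of each family in each library, 1 bar per library and no error bars because each group has 1 library. The LSD sum is at 48.6, 34.2, 45.3 and 35.4 FPKM, the KDM3 sum at 62.5, 45.6, 47.8 and 44.3, and the KDM6 sum at 11.1, 16.5, 11.6 and 15.6.

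By family, the summed levels separated into those lower and those higher with SD70. The LSD sum in SD70 was 0.703 of DMSO, the KDM3 sum 0.730 and the sum of the other JmjC genes 0.715, while the KDM6 sum was 1.49 and the sum of KDM7A, PHF8 and PHF2 1.14 times DMSO. These directions, and that of KDM4, were the same at an equal FPKM total or upper quartile per library. The directions of the KDM5 sum (0.904 as deposited) and of all 30 genes (0.859) turned with the same upper quartile, to 1.103 and 1.05.

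Between SD70 and DMSO, 7 of the 27 genes (25.9%) differed at least 1.5-fold on the log2(FPKM + 1) scale, beside 33.4% of all 12296 genes. KDM6B and KDM7A were higher, beside 14.6% of all genes, and KDM1A, JMJD1C, JMJD4, RIOX1 and RIOX2 were lower, beside 18.8%. The shares among members were below those of all genes or close to them, and say nothing particular about the family. The median log2 fold was -0.07 over the 27 genes and -0.07 over all genes. Of the 7 genes past the threshold of 0.58 on that scale, RIOX2 (-0.75) and KDM1A (-0.79) lay nearest to it. Both were short of it with the same upper quartile per library, at -0.55 for RIOX2 and -0.52 for KDM1A. Just outside it as deposited were KDM4B (0.57), KDM8 (-0.57) and KDM3A (0.54). In the limma test for SD70, 5 of the 27 genes passed (18.5%), beside 22.5% of all genes. KDM3A and KDM6B rose, beside 7.86% of all genes, and KDM1A, JMJD1C and RIOX1 fell, beside 14.7%. Limma-voom on the recovered reads called 10 of the 27 genes for SD70 (37.0%), beside 37.7% of all genes.

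**Figure D3:**
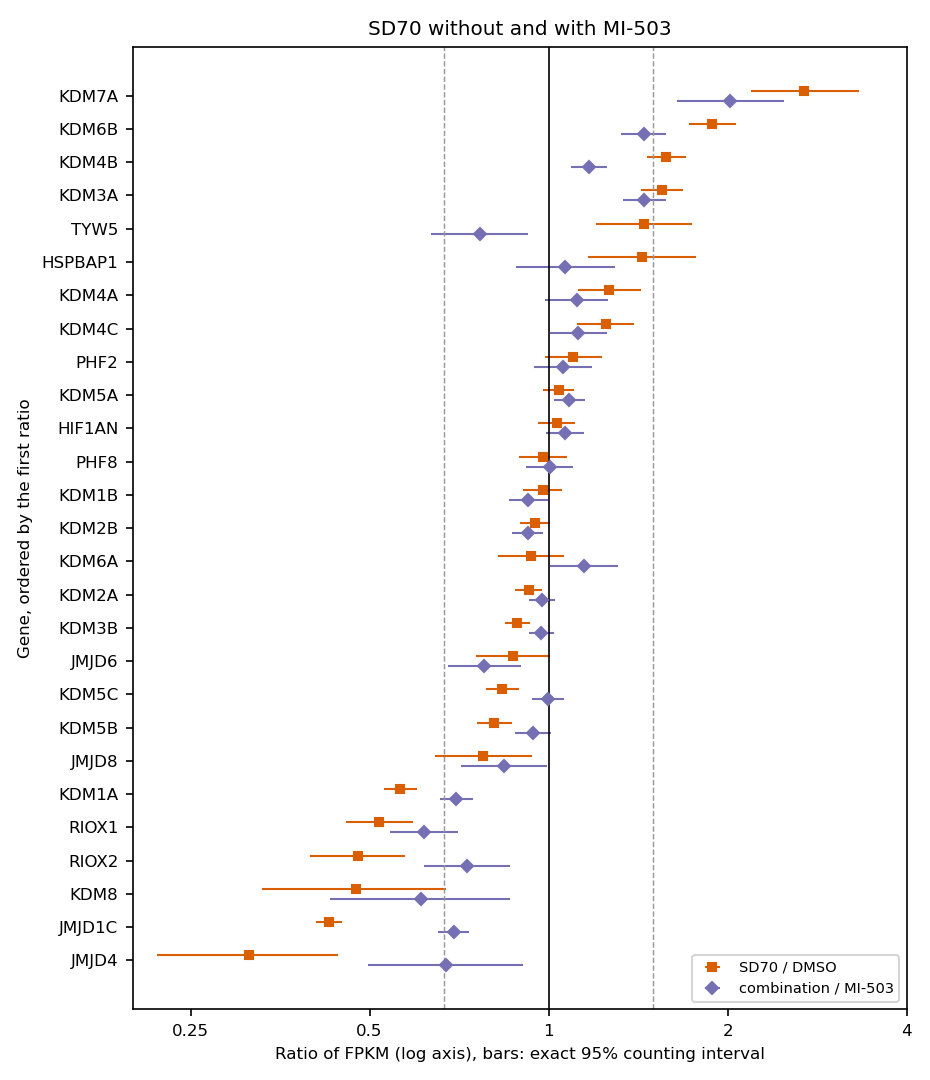
Ratio of FPKM (log axis) with SD70 to without it, for SD70 over DMSO and for the combination over MI-503, with exact 95% counting intervals as bars and dashed lines at 1.5-fold. KDM7A, KDM6B, KDM4B and KDM3A lie to the right in both ratios, JMJD1C, RIOX1, RIOX2 and KDM1A to the left, and most ratios of the second kind lie nearer to 1. The ratios are of plain FPKM, so a gene past a dashed line need not be called on the log2(FPKM + 1) scale.

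The effect of SD70 can be read a second time in the presence of MI-503, from a pair of libraries that shares none with the first. Between the combination and MI-503, 1 of the 27 genes (3.70%), RIOX1, differed at least 1.5-fold on the log2(FPKM + 1) scale, beside 16.8% of all genes (7.59% higher and 9.21% lower). That call was lost at an equal FPKM total per library (log2 -0.57) or the same upper quartile (log2 -0.46), where KDM7A in the first case, and KDM3A, KDM6B and KDM7A in the second, were called higher instead. KDM7A lay just outside the threshold at a log2 fold of 0.58. On that scale RIOX1 was also the single gene of the 27 lower by at least 1.5-fold in both pairs, beside 7.43% of all genes, and 0 were higher in both, beside 5.31%. As plain ratios of FPKM, KDM7A (2.69 and 2.02) and KDM8 (0.474 and 0.610) were also past 1.5-fold in both pairs. Both pairs of libraries had the same sign for 24 of the 27 genes (88.9%; 10 higher and 14 lower), beside 82.0% of all genes. The correlation of the 2 log2 folds was r = 0.90 (Spearman rho 0.85) over the 27 genes and r = 0.69 (rho 0.77) over all genes, given as a description across genes that share libraries and scaling. Both SD70 libraries lay above both others for 9 of the 27 genes, beside 32.1% of all genes, and below both for 13, beside 42.0%. With the same FPKM total these counts were 11 and 7, and with the same upper quartile 17 and 6.

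Fewer of these genes differed with MI-503 alone. Between MI-503 and DMSO, 1 of the 27 genes (3.70%), JMJD1C, differed at least 1.5-fold, beside 6.91% of all genes, and it was lower, beside 2.55%. In the presence of SD70 the ratio for JMJD1C was nearer to 1, with 0.889 between the combination and SD70 (0.834 to 0.947). Between those libraries 0 of the 27 genes differed at least 1.5-fold on the log2(FPKM + 1) scale, beside 4.76% of all genes (2.53% higher and 2.23% lower). In the limma test for MI-503, 0 of 12296 genes passed, and 401 genes had an unadjusted p under 0.05. JMJD1C was the only member among those 401, with a log2 change of -0.49 (adjusted p = 1). Limma-voom on the recovered reads called 8 genes for MI-503 (0.0651% of all genes), of which 0 were members. Smaller differences in the MI-503 library were a ratio of 1.28 for KDM4B (1.19 to 1.39), of 1.21 for KDM6B (1.09 to 1.34) and of 0.819 for KDM6A (0.718 to 0.934).

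**Figure D4:**
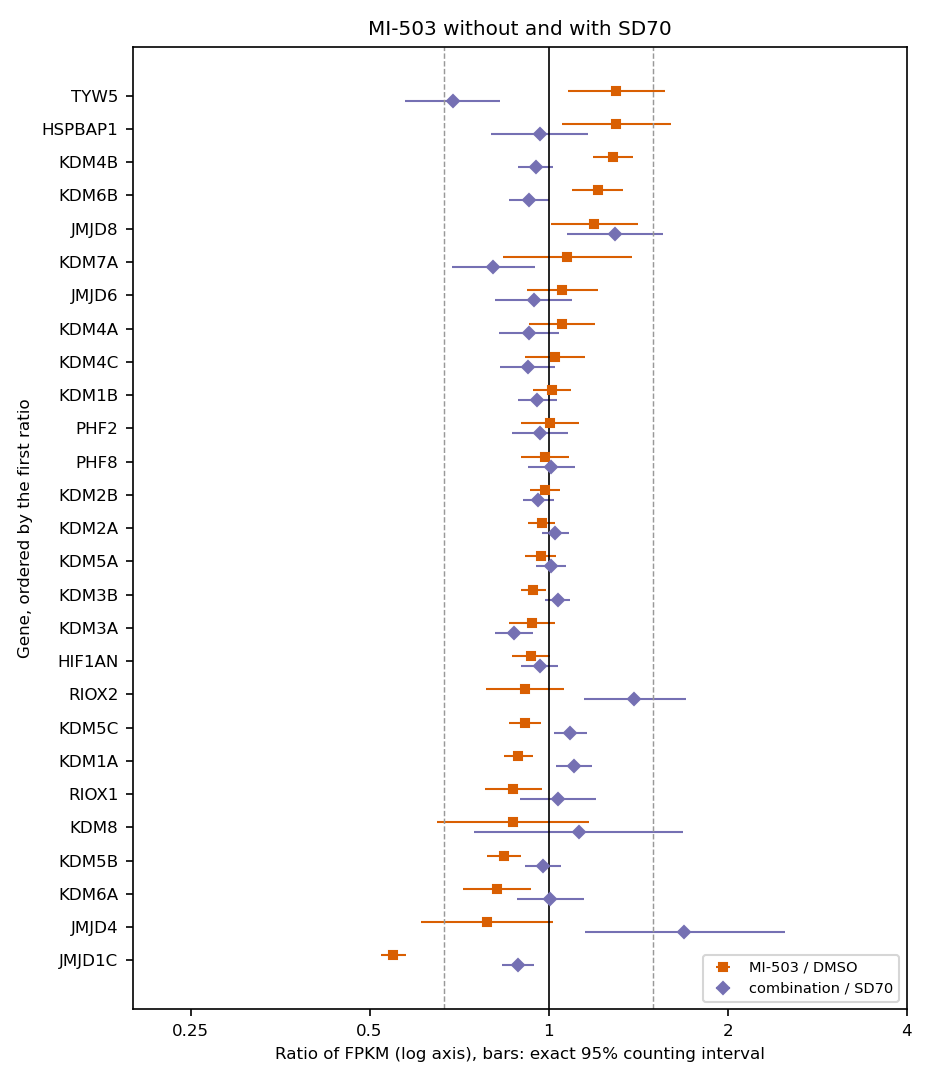
Ratio of FPKM (log axis) with MI-503 to without it, for MI-503 over DMSO and for the combination over SD70, with exact 95% counting intervals as bars and dashed lines at 1.5-fold. JMJD1C is at 0.548 in the first ratio and 0.889 in the second, and TYW5 and JMJD4 lie on opposite sides of 1 in the 2 ratios. The ratios are of plain FPKM, so JMJD4 is past a dashed line in the second without being called on the log2(FPKM + 1) scale.

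The 2 readings of MI-503, which share no library, had the same sign for 6 of the 27 genes (22.2%), beside 43.4% of all genes. None of the 27 differed at least 1.5-fold the same way in both, beside 0.561% of all genes higher and 0.415% lower. TYW5 was at 1.30 (1.08 to 1.57) between MI-503 and DMSO and at 0.690 (0.574 to 0.828) between the combination and SD70. JMJD4 was at 0.788 (0.610 to 1.02) in the first and at 1.69 (1.15 to 2.50) in the second. JMJD8 was higher in both, at 1.19 (1.01 to 1.41) and 1.29 (1.07 to 1.56). Both MI-503 libraries lay above both others for JMJD8 alone, beside 6.44% of all genes, and below both for HIF1AN alone, beside 7.21%.

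Between the combination and DMSO, 5 of the 27 genes (18.5%) differed at least 1.5-fold on the log2(FPKM + 1) scale, beside 27.9% of all genes. KDM6B and KDM7A were higher, at 1.75 (1.59 to 1.92) and 2.17 (1.75 to 2.70) times DMSO, and KDM1A, JMJD1C and RIOX1 were lower, at 0.623 (0.585 to 0.662), 0.380 and 0.538 (0.473 to 0.612) of DMSO. All 5 were also called between SD70 and DMSO, a pair that shares the DMSO library. JMJD4 and RIOX2, called in SD70, stood at 0.530 (0.396 to 0.706) and 0.666 (0.564 to 0.784) of DMSO in the combination.

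If each agent multiplied a level independently, the combination would equal DMSO times both single-agent ratios. For JMJD1C that product was 0.234 of DMSO and the measured level 0.380, which is 1.62 times the product (1.499 to 1.75). KDM1A was at 1.24 times its product (1.14 to 1.36), RIOX2 at 1.53 times (1.20 to 1.95) and JMJD4 at 2.14 times (1.37 to 3.34), all lower genes that went less far in the combination than the product. The intervals of RIOX1 (1.19, 0.991 to 1.42) and KDM8 (1.29, 0.798 to 2.08), also lower with each agent, included 1. Among genes that were higher with each agent, KDM4B was at 0.741 of its product (0.669 to 0.820) and KDM6B at 0.767 (0.677 to 0.869). In the same group HSPBAP1 was at 0.744 (0.564 to 0.980) and TYW5 at 0.530 (0.410 to 0.686). Also higher with each agent, but with intervals that included 1, were KDM4A (0.882, 0.744 to 1.05), KDM4C (0.899, 0.770 to 1.05), KDM7A (0.750, 0.563 to 1.0005) and PHF2 (0.961, 0.823 to 1.12). KDM3A, higher with SD70 but at 0.939 of DMSO in MI-503, was at 0.933 of its product (0.832 to 1.05), an interval that included 1. The departure from the product on the log2(FPKM + 1) scale was 0.5 or more in size for 3 of the 27 genes (11.1%; JMJD1C, JMJD4 and TYW5), beside 16.7% of all genes, and its median was 0.04 in both sets. The DMSO library enters the product more than once, and the departure has no test.

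**Figure D5:**
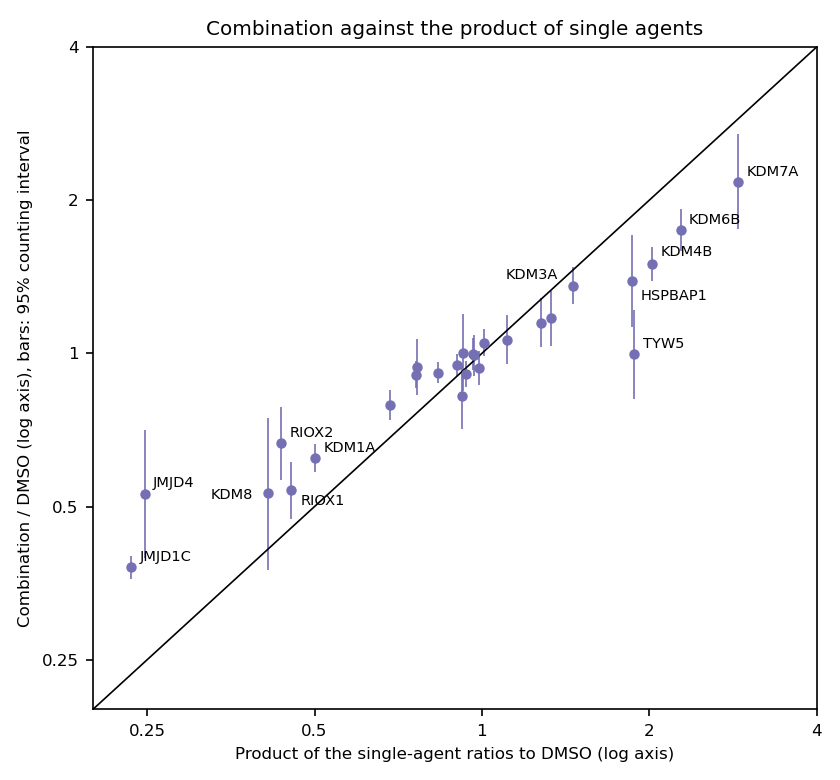
Measured ratio of the combination to DMSO against the product of both single-agent ratios to DMSO (both log axes), 1 point per gene with a mean of at least 1 FPKM, with exact 95% counting intervals of the measured ratio as bars and the line of equality. JMJD1C lies above the line at 0.234 and 0.380, and KDM4B, KDM6B and TYW5 lie below it.

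Partner genes were read from lists by role, and their counts use the limma test for SD70, in which 7.86% of all 12296 genes rose and 14.7% fell. The counts are read against those shares, and the lists hold few genes. The median log2 fold between SD70 and DMSO was 0.06 for partners of KDM1A, -0.02 for those of KDM2B, -0.30 for those of KDM6A, -0.27 for those of KDM5 enzymes and 0.11 for oxygen sensing, beside -0.07 over all genes. Of 16 measured partners of KDM1A, 1 rose (6.25%) and 0 fell. It was PHF21A, which reads unmethylated H3K4 in the complex, at 3.38, 7.63, 4.74 and 7.14 FPKM (limma adjusted p = 0.0339), named after its values were seen. Of 9 measured partners of KDM2B in its Polycomb complex, 0 rose and 1 fell (SKP1, at 10.3, 5.61, 8.61 and 5.92 FPKM, likewise named after its values were seen). Of 9 partners of KDM6A in the MLL3 and MLL4 complexes, 0 rose and 3 fell (33.3%). One of them was PAXIP1, at 4.98, 2.45, 4.70 and 2.48 FPKM (limma adjusted p = 0.0257). None of 9 partners of KDM5 enzymes and none of 6 genes of oxygen sensing passed the test in either direction.

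Another list held genes that make or use 2-oxoglutarate, the cosubstrate of JmjC enzymes, or the Krebs cycle products that compete with it. In SD70, 14 of its 16 measured genes were lower than in DMSO, beside 6791 of all 12296 genes. Of these 16 genes, 0 rose, beside 7.86% of all genes, and 9 fell (56.2%), beside 14.7%. The median log2 fold between SD70 and DMSO was -0.51, beside -0.07 over all genes. FH, the fumarase that consumes fumarate, was at 53.3, 23.4, 51.4 and 25.5 FPKM (limma adjusted p = 0.0224). SDHA, a subunit of succinate dehydrogenase, was at 28.7, 13.7, 25.7 and 14.8 FPKM, and GOT2, the mitochondrial aspartate aminotransferase, at 36.2, 18.0, 33.2 and 17.6 FPKM. In these 3 genes both SD70 libraries lay far below both others, in the direction opposite to the share of mitochondrial ribosomal RNA.

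Of 20 measured methyltransferases that write the opposing marks, 1 rose and 4 fell with SD70, which is 25% of the list beside 22.5% of all genes, near the background. EZH1, an H3K27 methyltransferase, rose, at 4.61, 9.79, 5.50 and 8.23 FPKM (limma adjusted p = 0.0326). Its paralogue EZH2 fell, at 27.1, 13.4, 18.5 and 13.7 FPKM (limma adjusted p = 0.0454), and both were named after their values were seen. The others that fell were NSD2, an H3K36 methyltransferase, and the H3K9 methyltransferases SUV39H1 and SUV39H2.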

How the data were processed

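RNA sequencing of 4 libraries, 1 per treatment, was analysed. RNA was extracted with Trizol, per the labels' protocols, and BWA, Bowtie and hg38 are named without role or version in the submitters' processing notes. The authors deposited 1 table per library, whose values are read here as FPKM, since the file headers do not name a unit; each value times the GENCODE 29 exon length gave whole reads, within 0.01 of a read. The scaling in the values equalled median-of-ratios size factors, at 0.980 in DMSO, 1.004 in SD70, 1.013 in MI-503 and 1.004 in the combination. Symbols were matched by Ensembl identifier, and coordinates are GENCODE 29 on GRCh38. The sources used here do not give the kit, its strand setting or the counter.

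Folds used log2(FPKM + 1), a scale that understates the change of low genes, with genes of a mean of at least 1 FPKM and a call at 1.5-fold. Limma 3.58.1 (R 4.3.3) fitted additive terms for SD70 and MI-503 over all 12296 genes, with a mean-variance trend, 2-sided, and was tested on simulated data; its residual is the departure from additivity. Reads carry no molecular identifiers, so PCR copies are counted as separate reads. Because each group is 1 library, p-values measure only the spread between these libraries. The planned count test was not used, as the tables hold no counts, apart from limma-voom on the recovered reads.

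All members were named, and of other lists the genes past 1.5-fold the same way in both SD70 pairs or both MI-503 pairs, at most 4 per list, with exceptions stated; an item that this rule names is not reported here. The members and lists were chosen with earlier results of these data known. Alternatives changed the pseudocount, filter, scaling, fold and limma setting.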

Additional observations from a re-analysis of the deposited data

How the results depend on the processing

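The 7 members past 1.5-fold between SD70 and DMSO became 3 with a pseudocount of 5, 4 at a mean of at least 5 FPKM and 1 at 2-fold, where JMJD1C alone was left. The 4 higher and 5 lower members with the same FPKM total, and the 4 higher and 3 lower with the same upper quartile, compare with 2 and 5 as deposited, and the higher share of calls among all genes went from 43.6% to 53.8% and 69.95%. Over all genes tested, the median log2 fold moved by 0.09 and 0.23 with these scalings. The count for MI-503 against DMSO went from 1 to 0 at 2-fold. For the combination against DMSO it went from 5 to 2 with a pseudocount of 5 and to 1 at 2-fold. Against MI-503 it went from 1 to 3 with a pseudocount of 0.1, to 0 with a pseudocount of 5, to 3 with the same upper quartile and to 0 at 2-fold. Against SD70 it went from 0 to 1 with a pseudocount of 0.1. The 5 members past limma for SD70 became 0 without the trend, where the smallest adjusted p among members was 0.0534, 0 with no filter on low values (0.277), 10 with limma-voom on the recovered reads and 4 with the same FPKM total, where JMJD1C was lost. Over the other limma settings the smallest member adjusted p lay between 1.18e-05 and 0.0349. For MI-503 the count was 0 in every limma setting. Limma was not run with the same upper quartile, the scaling that moved the median over all genes most. The cause of these changes was not tested. No member past a threshold changed direction in these settings, but the sign of 8 members between SD70 and DMSO, all under 0.25 in log2 size, turned with the same upper quartile. No paired analysis was possible because each group has 1 library, and leaving out a library left the additive fit no residual degree of freedom. Depth limits HR, KDM4D and JMJD7, and the wide intervals of KDM8 and JMJD4.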
